A study of Rattus norvegicus with 12 samples.

Results

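The genes described here make, take up, move, store and export cholesterol in the testis, with the regulators of these steps and a pair of fatty acid synthesis enzymes under the same regulators. The list named 37 genes by symbol. Of these, 35 had a probe set carrying their symbol alone, out of 14218 genes so represented on the array, and Hmgcs1 and Npc1 were not analysed here. Each gene was read on its probe set with the highest mean over the 12 arrays. All 35 of these probe sets passed the filter on low values. Nr1h3 did so only through its casein arrays, so its calls against casein are not independent of the filter. Across the list, 15 genes had 1 probe set and 20 had more, which added 26 further probe sets, 21 of them tested.

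Cells build cholesterol from acetyl-CoA through mevalonate, farnesyl diphosphate, squalene and lanosterol. When sterol is scarce in the endoplasmic reticulum, the escort protein Scap carries the SREBP transcription factors, products of Srebf1 and Srebf2, to the Golgi, where proteases release them to turn on synthesis and uptake genes. Insig proteins hold Scap back when sterol is abundant, and liver X receptors, bound by oxysterols, turn on the efflux pumps Abca1 and Abcg1. In the testis, Leydig cells use cholesterol as the precursor of testosterone, and Sertoli cells feed, support and clear germ cells, whose remains bring them lipid.

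Gene expression was measured in frozen whole testes of male Sprague-Dawley rats with Affymetrix arrays. All pups shared casein-based AIN-93G diet through lactation and were placed in 4 groups at postnatal day 21. The groups were casein diet, casein diet with 17beta estradiol, the same diet with soy protein isolate in place of casein, and that soy diet with 17beta estradiol. Diets ran to postnatal day 33, the hormone was given through a subcutaneous mini-osmotic pump at a daily dose of 10 µg per kg body weight, and testes were taken at postnatal day 34. Each group held 3 arrays, numbered 1 to 3. The labels did not say whether each array came from a separate animal, so p-values here reflect the spread among these samples, which may be technical. All values below are log2 intensities, and all differences are log2 differences with their standard error (SE).

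Arrays of 1 group correlated at 0.988 to 0.997. Defining markers of testis cells were present: all 13 spermatid, 12 Sertoli and 9 Leydig markers with a probe set of their own lay above the filter. Cell type markers differed strongly with estradiol. The mean level of the spermatid markers was 12.96 to 13.07 in the casein arrays and 11.81 to 12.48 with estradiol on casein, against 12.97 to 13.06 in the soy arrays and 12.09 to 12.62 with estradiol on soy. Of the 13 spermatid markers, 13 fell with estradiol on casein and 12 on soy. The mean of the 12 Sertoli markers went the other way. It was 9.15 to 9.17 in the casein arrays and 9.70 to 9.99 with estradiol, and 9.02 to 9.08 in the soy arrays and 9.68 to 10.05 with estradiol, with 9 markers higher and 1 lower on casein and 10 higher and 0 lower on soy. Leydig markers were mixed, with 1 of 9 higher and 5 lower on casein, and 2 higher and 6 lower on soy. By the same threshold, given below, 41.8% of all probe sets were called on casein, 21.9% higher and 19.9% lower. On soy 49.5% were called, 25.3% higher and 24.3% lower. The part of these cell types in the results below was not tested. In bulk tissue, fewer cells of a type and less RNA per cell cannot be told apart.

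With estradiol, the synthesis genes that were called fell, apart from the thiolase Acat2 on soy, while Srebf2, its escort Scap, the lysosomal cholesterol carrier Npc2 and the fatty acid synthase Fasn rose on both diets. The rise of Srebf2 rests on the probe set used here and was not called with the mean of both its probe sets. On the casein diet 4 of the 35 genes rose (Srebf2, Scap, Npc2 and Fasn) and 6 fell (Pmvk, Mvd, Fdps, Fdft1, Tm7sf2 and Nr1h3). A gene was called at an adjusted p under 0.05 in limma, with Benjamini-Hochberg adjustment over all 21729 probe sets tested. These 10 genes were 28.6% of the list, below the 41.8% called among all probe sets, 21.9% higher and 19.9% lower. On the soy diet 7 rose (Acat2, Srebf2, Scap, Npc2, Lipa, Abca1 and Fasn) and 10 fell (Mvk, Mvd, Fdft1, Sqle, Tm7sf2, Acat1, Insig1, Insig2, Stard3 and Nr1h3). These 17 genes were 48.6% of the list, near the 49.5% called among all probe sets, 25.3% higher and 24.3% lower. Both counts include Nr1h3, with the limit given above. The median difference over the 35 genes was -0.08 on casein and -0.09 on soy, beside -0.01 and -0.04 over the 11777 genes tested.

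In both comparisons, which share no arrays, 8 genes were called in the same direction: Srebf2, Scap, Npc2 and Fasn upward, and Mvd, Fdft1, Tm7sf2 and Nr1h3 downward. They were 22.9% of the list, below the 28.2% of all probe sets that were called in both in 1 direction. None of the 35 was called in opposite directions, beside 0.723% of all probe sets. A further 2 genes were called on casein alone, 9 on soy alone and 16 on neither, and 29 of the 35 had the same sign in both. The arrays with and without estradiol did not overlap for 19 of the 35 genes on casein and 18 on soy, against 60.0% and 57.3% of all probe sets.

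**Figure D1:**
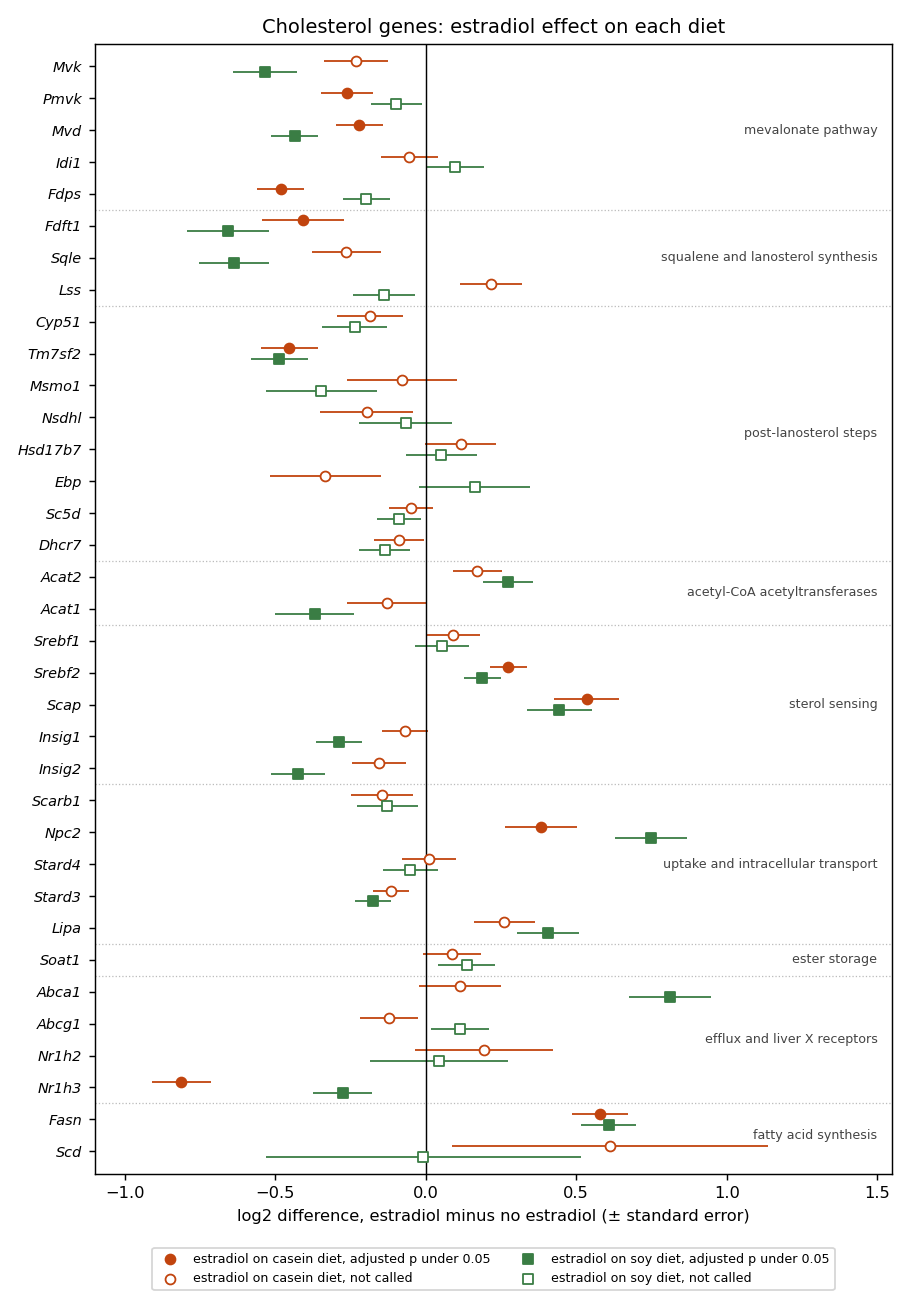
Log2 difference of estradiol minus no estradiol for each of the 35 genes, ordered by role, with circles for the casein diet, squares for the soy diet, and bars of 1 standard error. Filled symbols are the 10 genes called on casein and the 17 called on soy; most filled symbols of the synthesis steps lie below 0, and those of Srebf2, Scap, Npc2 and Fasn lie above 0 on both diets.

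Promoter sequence is shown for 5 of the 8 genes called in both comparisons, because each was called in the same direction on both diets. Fdft1 and Fasn had no single window in the reference table, and the window of Nr1h3 is described without its letters. Each is the 250 bases before the annotated start in RefSeq's GRCr8 rat assembly, written 5′ to 3′ on the gene's strand. Capitals mark matches, on either strand, to CCAAT (the box bound by NF-Y), GGGCGG (the GC box bound by Sp1), CACGTG (an E-box) and TCACNCCAC (a sterol regulatory element). Mvd and Tm7sf2 fell, and Srebf2, Scap and Npc2 rose. Their windows lie at chr19:67414975-67415224 (minus strand), chr1:212789542-212789791 (minus strand), chr7:115543057-115543306 (plus strand), chr8:119184188-119184437 (plus strand) and chr6:110149246-110149495 (minus strand).
Mvd: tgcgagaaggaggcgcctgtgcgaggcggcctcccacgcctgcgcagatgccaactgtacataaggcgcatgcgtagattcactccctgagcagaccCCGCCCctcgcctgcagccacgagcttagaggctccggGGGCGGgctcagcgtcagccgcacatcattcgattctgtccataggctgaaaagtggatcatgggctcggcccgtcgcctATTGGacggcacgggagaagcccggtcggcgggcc
Tm7sf2: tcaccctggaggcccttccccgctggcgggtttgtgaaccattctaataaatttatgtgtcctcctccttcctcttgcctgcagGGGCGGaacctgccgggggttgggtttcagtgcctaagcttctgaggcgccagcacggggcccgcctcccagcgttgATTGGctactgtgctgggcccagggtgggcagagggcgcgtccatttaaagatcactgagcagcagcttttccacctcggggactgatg
Srebf2: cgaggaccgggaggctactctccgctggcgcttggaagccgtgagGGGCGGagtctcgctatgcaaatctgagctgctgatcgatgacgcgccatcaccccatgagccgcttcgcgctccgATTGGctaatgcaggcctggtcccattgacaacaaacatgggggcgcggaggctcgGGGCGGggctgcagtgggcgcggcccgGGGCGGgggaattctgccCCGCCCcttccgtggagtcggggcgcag
Scap: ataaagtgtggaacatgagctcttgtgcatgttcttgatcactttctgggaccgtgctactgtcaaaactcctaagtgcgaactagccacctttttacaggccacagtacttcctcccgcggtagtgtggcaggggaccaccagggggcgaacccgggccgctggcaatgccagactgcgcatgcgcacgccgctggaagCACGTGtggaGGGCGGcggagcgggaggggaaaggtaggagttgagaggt
Npc2: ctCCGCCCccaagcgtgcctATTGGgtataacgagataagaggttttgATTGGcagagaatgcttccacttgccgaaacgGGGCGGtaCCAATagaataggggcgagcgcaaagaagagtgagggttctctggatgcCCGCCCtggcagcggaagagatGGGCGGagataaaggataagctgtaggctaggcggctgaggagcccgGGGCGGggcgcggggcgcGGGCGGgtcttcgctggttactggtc

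The Mvd window held 1 CCAAT and 2 GGGCGG matches, and that of Tm7sf2 held 1 of each. Srebf2 had 1 CCAAT and 4 GGGCGG matches, Scap had 1 GGGCGG and 1 CACGTG match, and Npc2 had 3 CCAAT and 6 GGGCGG matches. The window of Nr1h3 held none of the 4 motifs. Over the 28 genes of the list with a window, CCAAT was present in 11 of 14 synthesis genes (78.6%) and 8 of 14 others (57.1%), beside 34.0% of all 33469 windows in the table. GGGCGG was present in 12 of 14 synthesis genes (85.7%) and 9 of 14 others (64.3%), beside 30.5% of all windows. CACGTG was present in 1 synthesis gene and 3 others, beside 5.59% of all windows, and TCACNCCAC in 0 of the 28, beside 0.974%. Listed genes were each counted once over all their windows, while the background counts every window, with no limit to genes measured here. The shares are therefore not like for like, and enrichment was not tested. A match is a description of the letters and not a binding site, and an absent match says only that these letters were not in the window.

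Of the 17 synthesis genes measured, 0 rose and 5 fell with estradiol on casein, and 1 rose and 5 fell on soy. The shares called, 29.4% and 35.3%, were below the 41.8% and 49.5% of all probe sets. Their median difference was -0.20 on casein, with 14 of 17 below 0, and -0.14 on soy, with 13 of 17 below 0. Over all 11777 genes tested, 50.9% were below 0 on casein and 53.7% on soy. The early steps make isoprenoid building blocks from mevalonate. Mvd, the decarboxylase that makes isopentenyl diphosphate, fell on both diets. It measured 9.01, 8.77 and 8.79 in the casein arrays and 8.59, 8.68 and 8.64 with estradiol. It measured 8.97, 8.84 and 8.88 in the soy arrays and 8.51, 8.38 and 8.50 with estradiol. Every estradiol array was below every array of the same diet without it. The difference was -0.22 ± 0.078 (SE) on casein (adjusted p = 0.0385) and -0.44 ± 0.078 on soy (adjusted p = 0.000927). The call on casein was lost when any of 6 arrays was left out, casein 1 or 3, casein with estradiol 1, 2 or 3, or soy 3, with an adjusted p of 0.0501 to 0.159. Without casein 1 the difference was -0.15. The call on soy was kept without each of the 12 arrays in turn.

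Mvk, which phosphorylates mevalonate, measured 7.40, 7.28 and 7.17 in the soy arrays and 6.93, 6.49 and 6.83 with estradiol. The groups did not overlap and the difference was -0.53 ± 0.105 (adjusted p = 0.00157). On casein it measured 7.32, 7.26 and 7.20 without and 7.10, 6.94 and 7.05 with estradiol, a difference of -0.23 ± 0.105 that was not called (adjusted p = 0.0945), but was without soy with estradiol 2 (0.0252). It was also called with only the casein groups in the fit (0.0226), with array weights (0.0316) and with the mean of its probe sets (0.0212). A second probe set of Mvk, 1368232_at, was called lower on both, at -0.42 ± 0.072 on casein (adjusted p = 0.000845) and -0.45 ± 0.072 on soy (adjusted p = 0.000480). The remaining one, 1375401_at, was called in neither comparison. Pmvk, the next kinase, went from 7.70, 7.93 and 7.89 to 7.63, 7.61 and 7.50 on casein, a difference of -0.26 ± 0.085 (adjusted p = 0.0270). This call was lost without casein 2, casein 3 or casein with estradiol 3, with an adjusted p of 0.088 to 0.107. On soy the Pmvk arrays overlapped, with a difference of -0.10 ± 0.085 (adjusted p = 0.355).

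Fdps makes farnesyl diphosphate, the branch point between sterols and other isoprenoids. It measured 11.53, 11.68 and 11.64 in the casein arrays and 11.19, 11.25 and 10.97 with estradiol. On soy it measured 11.43, 11.47 and 11.56 without and 11.25, 11.31 and 11.30 with estradiol. All estradiol arrays lay below those of their diet. The difference was -0.48 ± 0.077 on casein (adjusted p = 0.000634), a 1.40-fold fall that kept its call without each array in turn, and -0.20 ± 0.077 on soy, which missed the threshold (adjusted p = 0.0503). The soy difference was called without casein with estradiol 2 or 3 or soy with estradiol 2 (0.0249 to 0.0494). It was also called on the deposited values (0.0319), with median centring (0.0279), under the 50% filter (0.0456) and with array weights (0.0435). The estradiol effects on the 2 diets were not shown to differ (interaction 0.28 ± 0.109, adjusted p = 0.164). Idi1, which isomerises isopentenyl diphosphate, was not called on either diet, with differences of -0.05 and 0.10.

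Squalene synthesis and its oxidation commit the pathway to sterols, and on soy its first enzymes showed the largest falls of the synthesis genes. Fdft1, squalene synthase, measured 11.30, 11.22 and 11.15 in the casein arrays and 10.86, 10.80 and 10.78 with estradiol. It measured 11.10, 11.09 and 10.93 in the soy arrays and 10.50, 9.98 and 10.67 with estradiol. The groups did not overlap on either diet, and soy with estradiol 2 was the lowest of the 12 arrays. The difference was -0.41 ± 0.136 on casein (adjusted p = 0.0296) and -0.66 ± 0.136 on soy (adjusted p = 0.00207), or 1.58-fold. The casein call was lost without any 1 of the 6 casein and casein with estradiol arrays, with an adjusted p of 0.0525 to 0.0878, and the soy call was kept without each of the 12. The second probe set of Fdft1, 1389906_at, was lower by similar amounts on both diets, at -0.33 ± 0.065 on casein (adjusted p = 0.00194) and -0.32 ± 0.065 on soy (adjusted p = 0.00197), and neither of these calls was lost without any 1 array.

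Sqle, squalene epoxidase, measured 9.83, 9.72 and 9.55 in the soy arrays and 8.98, 8.91 and 9.31 with estradiol, with no overlap. The difference was -0.64 ± 0.115 (adjusted p = 0.000938), and it kept its call without each array in turn. On casein it measured 9.87, 9.68 and 9.66 without and 9.59, 9.48 and 9.35 with estradiol. That difference of -0.26 ± 0.115 was not called (adjusted p = 0.0826), though those groups did not overlap either, and was called without soy with estradiol 3 (0.0414). It was also called on the deposited values (-0.36, adjusted p = 0.0242), with median centring (-0.40, adjusted p = 0.0149) and with only the casein groups in the fit (0.0294). Lss, which closes the lanosterol ring, was not called on either diet. On casein it measured 7.91, 7.91 and 7.92 without and 8.17, 8.09 and 8.13 with estradiol, higher with no overlap, a difference of 0.22 (adjusted p = 0.108). It was called without soy with estradiol 2 (0.00782), with only the casein groups in the fit (0.0131) and with array weights (0.00116). On soy it measured 8.06, 8.04 and 8.07 without and 8.12, 7.62 and 8.02 with estradiol. The difference of -0.14 rests on soy with estradiol 2 and was 0.01 without it.

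Among the 8 genes of the steps after lanosterol, 1 was called on each diet, Tm7sf2 both times. That is 12.5% on each diet, beside 41.8% and 49.5% of all probe sets. Tm7sf2, a sterol C14 reductase, measured 7.92, 7.64 and 7.62 in the casein arrays and 7.30, 7.30 and 7.22 with estradiol. It measured 7.68, 7.83 and 7.70 in the soy arrays and 7.41, 7.21 and 7.13 with estradiol. Every estradiol array was lower than every array of its diet. The differences were -0.45 ± 0.095 on casein (adjusted p = 0.00272) and -0.49 ± 0.095 on soy (adjusted p = 0.00147), and both calls were kept without each array in turn. Cyp51, Msmo1, Nsdhl, Hsd17b7, Ebp, Sc5d and Dhcr7, which demethylate, reduce and isomerise the sterol, were not called. Their differences ran from -0.33 (Ebp) to 0.12 (Hsd17b7) on casein and from -0.35 (Msmo1) to 0.16 (Ebp) on soy. Single arrays decided some of these. Ebp, which isomerises the sterol ring, measured 7.06, 7.16 and 6.98 in the soy arrays and 7.81, 7.05 and 6.84 with estradiol, and without soy with estradiol 1 its soy difference was -0.12. Its casein difference of -0.33 was then called (adjusted p = 0.00855), as it was with only the casein groups in the fit (0.00968). Msmo1, which removes methyl groups, was called on soy without soy with estradiol 1, at -0.52 (adjusted p = 0.0309), and Cyp51 without soy with estradiol 2, at -0.35 (adjusted p = 0.00918). Dhcr7, the last reductase, differed by -0.09 (95% interval -0.28 to 0.11) and -0.14 (-0.33 to 0.06).

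For several of these genes a second probe set gave another answer. Cyp51, lanosterol demethylase, fell on its second probe set, 1387020_at, at -0.31 ± 0.073 on casein (adjusted p = 0.00536) and -0.41 ± 0.073 on soy (adjusted p = 0.000874). Its main probe set gave -0.19 and -0.24, with adjusted p = 0.187 and 0.0873. Sc5d, a sterol desaturase, had 3 probe sets. One of them, 1387926_at, went from 7.86, 7.72 and 7.77 to 7.37, 7.08 and 7.33 on casein and from 7.73, 7.63 and 7.46 to 6.97, 6.85 and 7.14 on soy. These differences of -0.52 (adjusted p = 0.00180) and -0.62 (adjusted p = 0.000513) held without each array in turn, while neither of the other 2 Sc5d probe sets was called on either diet. The second probe set of Hsd17b7, a 3-ketosteroid reductase, rose on soy by 0.35 ± 0.086 (adjusted p = 0.00606). With the mean of all probe sets of a gene, both Cyp51 and Sc5d were called lower on both diets. Cyp51 then differed by -0.25 on casein (adjusted p = 0.0258) and -0.32 on soy (adjusted p = 0.00647). Sc5d differed by -0.24 on both (adjusted p = 0.00783 and 0.0067).

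**Figure D2:**
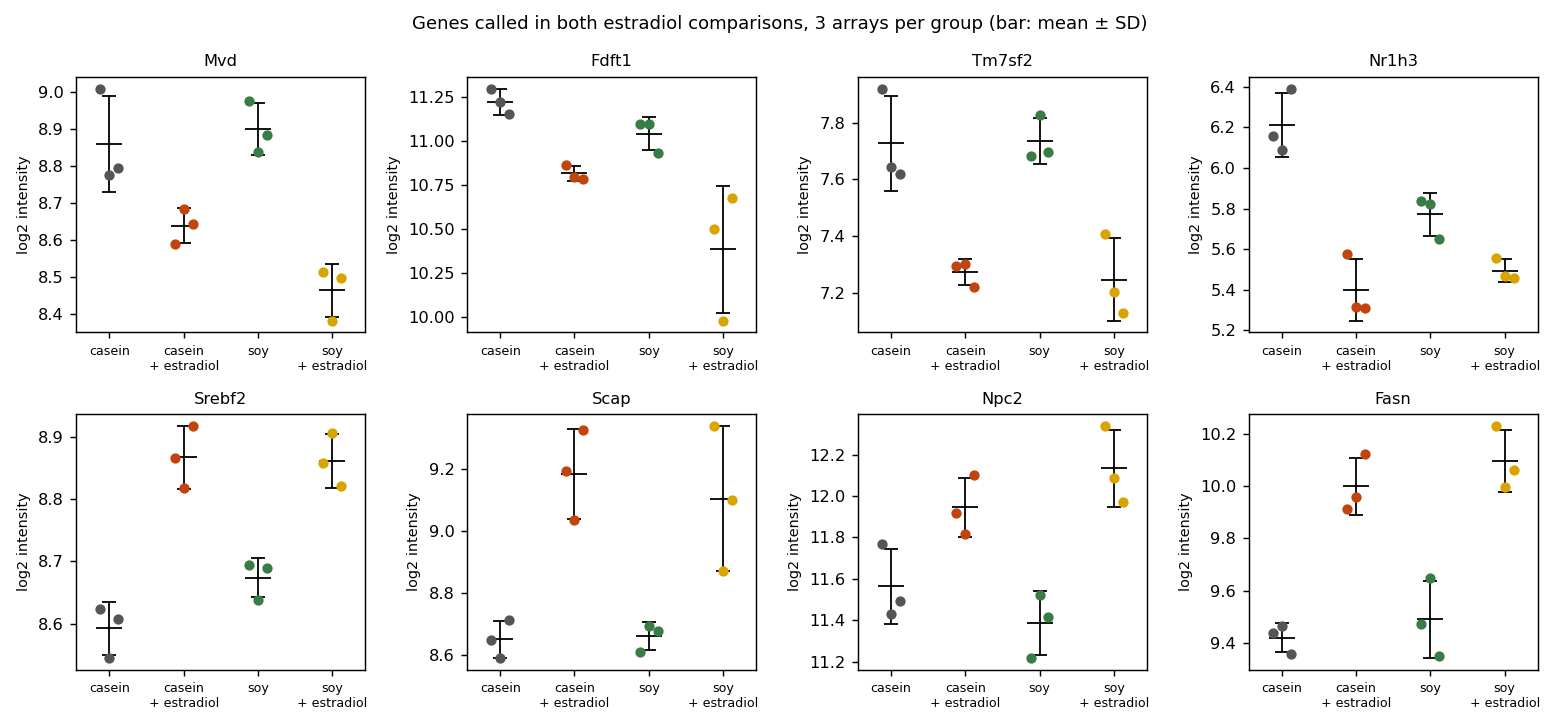
Log2 intensity of the 8 genes called in both estradiol comparisons, each point 1 array, with bars of mean ± SD over 3 arrays. Mvd, Fdft1, Tm7sf2 and Nr1h3 are lower with estradiol on both diets, and Srebf2, Scap, Npc2 and Fasn are higher, with no overlap between arrays with and without estradiol on either diet.

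The thiolases condense acetyl-CoA at the head of the pathway, and the 2 measured went opposite ways on soy. Acat2, the cytosolic enzyme, measured 7.93, 7.93 and 7.86 in the soy arrays and 8.23, 8.18 and 8.13 with estradiol, a rise of 0.27 ± 0.083 (adjusted p = 0.0167) with no overlap. That call was lost without soy 3 (adjusted p = 0.0585). Acat1, the mitochondrial enzyme of ketone and isoleucine breakdown, measured 9.61, 9.47 and 9.58 and then 9.48, 8.79 and 9.28. The array soy with estradiol 2 was by far the lowest, soy with estradiol 1 lay inside the soy range, and the difference was -0.37 ± 0.132 (adjusted p = 0.0346). It was lost without soy 1, soy 3 or soy with estradiol 2, with an adjusted p of 0.0721 to 0.0977, and was -0.17 without soy with estradiol 2. It was also lost on the deposited values (adjusted p = 0.063), with only the 2 groups in the fit (0.106) and with the mean of both Acat1 probe sets (0.531), the second of which lay below the filter. On casein neither was called, at 0.17 for Acat2 (adjusted p = 0.114) and -0.13 for Acat1 (adjusted p = 0.453). Without casein with estradiol 2, Acat2 was called at 0.26 (adjusted p = 0.0257).

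In the sterol sensing system Scap and Srebf2 rose on both diets, and Insig1 and Insig2 fell on soy. Scap, which escorts SREBP to the Golgi, measured 8.65, 8.59 and 8.71 in the casein arrays and 9.19, 9.04 and 9.33 with estradiol. It measured 8.61, 8.69 and 8.68 in the soy arrays and 9.34, 8.87 and 9.10 with estradiol. The estradiol arrays were higher without overlap on both diets, and they varied more among themselves than the others. The rise was 0.53 ± 0.108 on casein (adjusted p = 0.00227) and 0.44 ± 0.108 on soy (adjusted p = 0.00543), that is 1.45-fold and 1.36-fold, and it held without each array in turn. A second Scap probe set, 1384464_at, was called on neither diet.

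Srebf2, the factor of cholesterol genes, measured 8.62, 8.54 and 8.61 in the casein arrays and 8.87, 8.82 and 8.92 with estradiol. It measured 8.69, 8.64 and 8.69 in the soy arrays and 8.86, 8.91 and 8.82 with estradiol. The rise was 0.27 ± 0.062 on casein (adjusted p = 0.00409) and 0.19 ± 0.062 on soy (adjusted p = 0.0242). The casein call held without each array in turn, and the soy call was lost without any 1 of the 3 soy arrays (adjusted p = 0.0509 to 0.0749) and with only the soy groups in the fit (0.0959). The second probe set of Srebf2, 1377489_at, lay near the filter level and was called lower on soy, at -0.23 ± 0.071 (adjusted p = 0.0180), a call lost without soy 1, soy 2 or soy with estradiol 1 (0.0541 to 0.0745) and with only the soy groups in the fit (0.0518). With the mean of both probe sets the call on casein was lost (adjusted p = 0.212) and the soy difference turned to -0.022 (adjusted p = 0.732), so the direction for Srebf2 rests on 1371979_at, the probe set used here. Srebf1, whose products serve mainly fatty acid genes, was not called, at 0.09 and 0.05. Its second probe set, 1371104_at, was lower on soy, at -0.26 ± 0.075 (adjusted p = 0.0140), which was lost without soy 3 (adjusted p = 0.0615).

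Insig1 and Insig2 retain Scap in the endoplasmic reticulum. Insig1 measured 9.45, 9.40 and 9.37 in the soy arrays and 9.17, 8.98 and 9.21 with estradiol. Insig2 measured 8.93, 8.96 and 8.95 in the soy arrays and 8.41, 8.40 and 8.75 with estradiol, where array 3 was the highest. Neither gene overlapped between those groups. The differences were -0.29 ± 0.076 for Insig1 (adjusted p = 0.00849) and -0.42 ± 0.090 for Insig2 (adjusted p = 0.00248), and both held without each array in turn. On casein the differences were -0.07 (adjusted p = 0.485) and -0.16 (adjusted p = 0.184), and the interaction was called for neither (adjusted p = 0.268 and 0.247). Insig2 was called lower on casein with median centring (-0.25, adjusted p = 0.0433) and with array weights (-0.16, adjusted p = 0.0269). The other Insig2 probe set, 1389377_at, was called on neither diet.

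**Figure D3:**
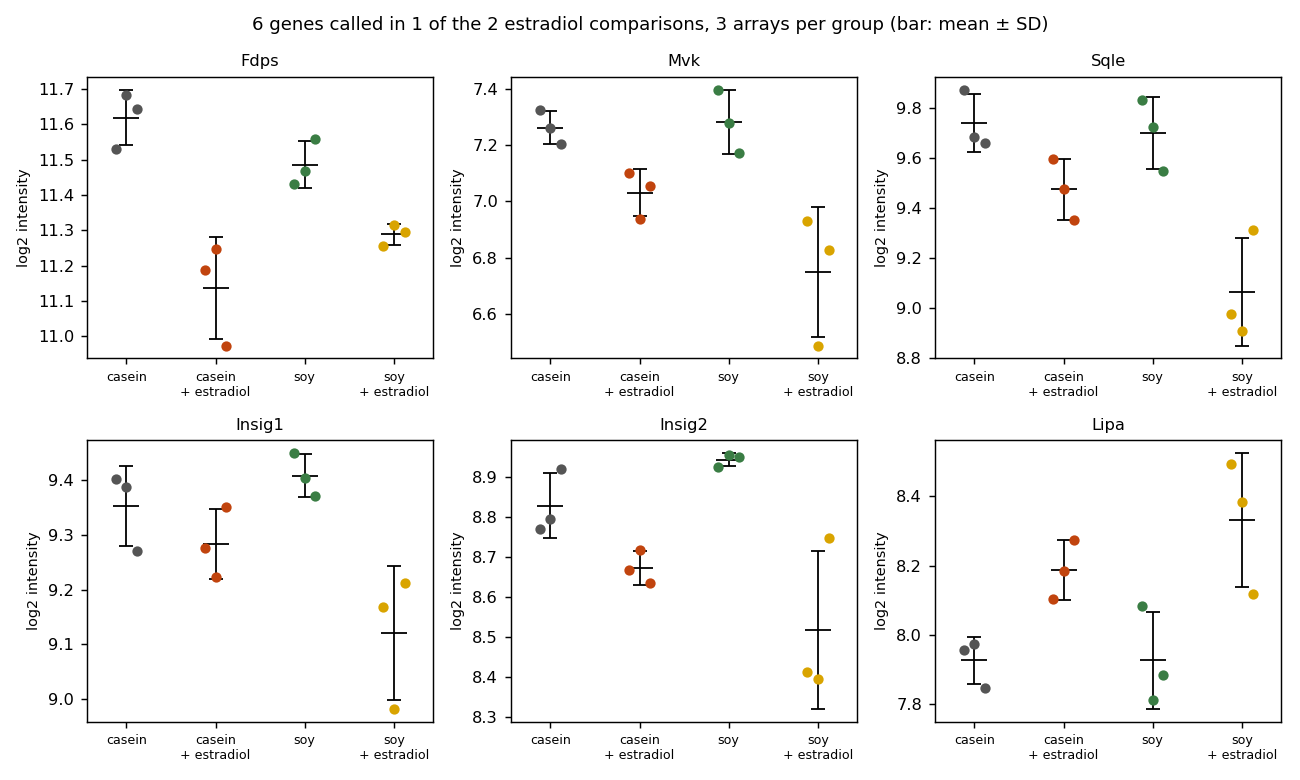
Log2 intensity of 6 genes called in 1 of the 2 estradiol comparisons, each point 1 array, with bars of mean ± SD over 3 arrays. Fdps was called on casein, and Mvk, Sqle, Insig1, Insig2 and Lipa on soy; in every one of the 6 the mean moved in the same direction on both diets.

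The lysosomal genes Npc2 and Lipa rose, Npc2 on both diets and Lipa on soy. Npc2 binds cholesterol freed in the lysosome and hands it on for export. It measured 11.77, 11.43 and 11.49 in the casein arrays and 11.92, 11.82 and 12.10 with estradiol. It measured 11.22, 11.52 and 11.42 in the soy arrays and 12.34, 12.09 and 11.97 with estradiol. The estradiol arrays were higher without overlap on both diets, most widely on soy. The rise was 0.38 ± 0.119 on casein (adjusted p = 0.0220) and 0.75 ± 0.119 on soy (adjusted p = 0.000461), the latter 1.68-fold. The casein call was lost without casein 2, casein 3 or casein with estradiol 3 (adjusted p = 0.0777 to 0.0951), on the deposited values (0.0809) and with median centring (0.129). The soy call held under each of these settings and without each array.

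Lipa, the acid lipase that frees cholesterol from lysosomal esters, measured 8.08, 7.81 and 7.88 in the soy arrays and 8.49, 8.38 and 8.12 with estradiol. The groups did not overlap, and the rise was 0.41 ± 0.102 (adjusted p = 0.00621), kept without each array but lost with array weights (0.0822). On casein it measured 7.96, 7.97 and 7.85 without and 8.10, 8.18 and 8.27 with estradiol, a difference of 0.26 ± 0.102 that missed the threshold (adjusted p = 0.0555) and was called without soy with estradiol 1 (0.0345) or 3 (0.0274). It was also called under the 50% filter (0.0482), with only the casein groups in the fit (0.0138) and with array weights (0.0357). Stard3, which passes cholesterol from late endosomes to other membranes, fell on soy from 8.92, 8.84 and 8.88 to 8.69, 8.68 and 8.74. The difference was -0.18 ± 0.060 (adjusted p = 0.0275), without overlap. This small fall lost its call without soy 1, soy 3 or soy with estradiol 1 (adjusted p = 0.0538 to 0.0967), on the deposited values (0.255), with median centring (0.188) and with only the soy groups in the fit (0.113). On casein Stard3 measured 8.93, 8.91 and 8.85 without and 8.77, 8.77 and 8.81 with estradiol, and was not called. There it was called lower on the deposited values (-0.17, adjusted p = 0.0341) and with median centring (-0.21, adjusted p = 0.0133). The same held with array weights (-0.13, adjusted p = 0.0172). Scarb1, the receptor for high-density lipoprotein, and Stard4, a cytosolic sterol carrier, were not called on either diet. Scarb1 differed by -0.15 (95% interval -0.38 to 0.09) on casein and -0.13 (-0.36 to 0.11) on soy. Without casein with estradiol 3 it was called on casein, at -0.27 (adjusted p = 0.0311). Stard4 differed by 0.01 and -0.05.

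Soat1, which esterifies cholesterol for storage, differed by 0.09 on casein and 0.14 on soy and was not called. Its dimmer probe set, 1369002_at, was lower on soy, at -0.30 ± 0.097 (adjusted p = 0.0221), a call lost without any 1 of soy 1, soy 2, soy with estradiol 1 or soy with estradiol 2 (0.0618 to 0.0745) and with array weights (0.118).

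Among efflux genes Abca1, which loads cholesterol onto apolipoproteins, gave the largest rise of the 35 genes on soy, and its probe sets disagreed. Its brightest probe set, 1382431_at, measured 8.72, 8.47 and 8.72 in the soy arrays and 9.53, 9.44 and 9.39 with estradiol. The groups were far apart, and the rise was 0.81 ± 0.136 (adjusted p = 0.000624), or 1.76-fold, kept without each array in turn. On casein it measured 8.89, 9.03 and 8.61 without and 8.69, 8.95 and 9.24 with estradiol. Those groups overlapped, and the difference was 0.11 ± 0.136 (adjusted p = 0.523).

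A second Abca1 probe set, 1394490_at, rose on both diets, by 0.62 ± 0.128 on casein (adjusted p = 0.00249) and 0.55 ± 0.128 on soy (adjusted p = 0.00421). In contrast, 1383355_at was lower on both, at -0.39 ± 0.094 on casein (adjusted p = 0.00579) and -0.38 ± 0.094 on soy (adjusted p = 0.00597). It went from 7.93, 7.92 and 7.66 to 7.50, 7.48 and 7.35 on casein and from 7.84, 7.76 and 7.82 to 7.54, 7.25 and 7.49 on soy, with no overlap. None of these 4 calls was lost without any 1 array. The last, 1384381_at, lay below the filter. With the mean of all 4 probe sets the Abca1 difference on soy was 0.17 and was not called (adjusted p = 0.102), so no single direction holds for the gene.

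**Figure D4:**
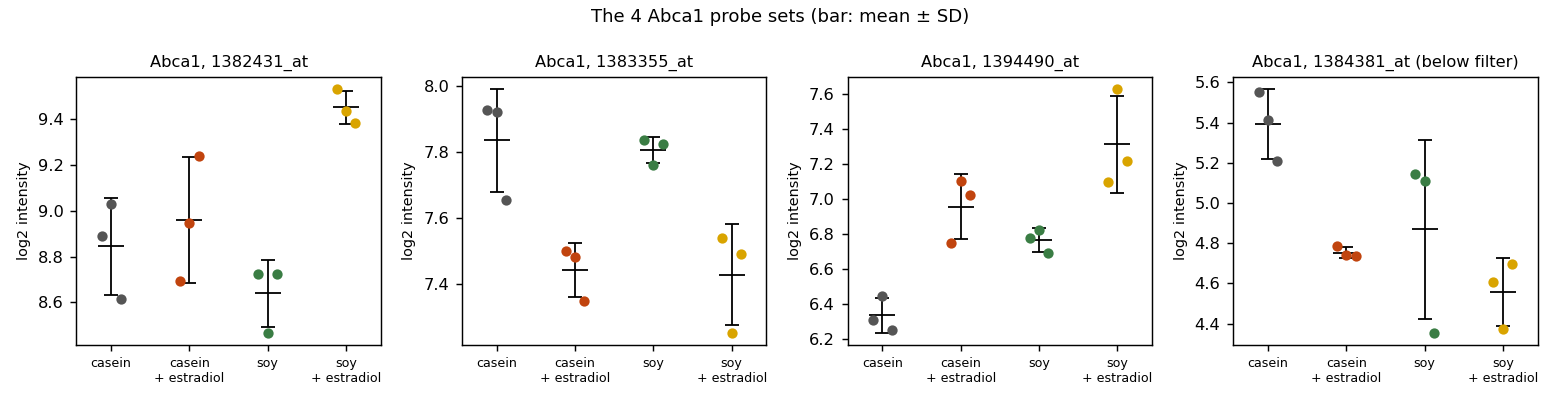
Log2 intensity of the 4 Abca1 probe sets, each point 1 array, with bars of mean ± SD over 3 arrays and a separate axis for each probe set. With estradiol, 1394490_at is higher and 1383355_at lower on both diets, 1382431_at is clearly higher on soy, and 1384381_at lies below the filter level of 5.69.

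Nr1h3, the liver X receptor of macrophages, liver and fat, fell with estradiol on both diets and on soy against casein. It measured 6.16, 6.09 and 6.39 in the casein arrays, 5.57, 5.31 and 5.31 with estradiol on casein, 5.84, 5.82 and 5.65 in the soy arrays and 5.56, 5.47 and 5.46 with estradiol on soy. The casein arrays were the highest, and the soy arrays lay between them and all estradiol arrays. The estradiol difference was -0.81 ± 0.099 on casein (adjusted p = 0.000139) and -0.28 ± 0.099 on soy (adjusted p = 0.0353). Both estradiol means lay below the filter level of 5.69, where a value may be close to background, so no fold is given and the sizes of the falls cannot be ranked. The gene passed the filter only through its casein arrays, and fell out of it without any 1 casein array and under the 50% filter. In the other 9 fits without 1 array the casein call was kept. The soy call was lost without soy 1, soy 2, soy with estradiol 2 or soy with estradiol 3 (adjusted p = 0.0714 to 0.109).

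Of 12 macrophage and leukocyte markers with a probe set, 10 were tested. With estradiol 0 rose and 6 fell on casein, and 1 rose and 2 fell on soy. The shares called were 60% and 30%, beside 41.8% and 49.5% of all probe sets. The mean level of the 12 markers was 7.63 to 7.85 in the casein arrays, 7.24 to 7.34 with estradiol, 7.44 to 7.54 in the soy arrays and 7.44 to 7.57 with estradiol on soy. As for Nr1h3, the casein arrays were the highest. On soy the marker means with and without estradiol overlapped. The part of these cells in the Nr1h3 result was not tested. Nr1h2, the liver X receptor found in most tissues, varied widely between arrays and was not called, at 0.19 (95% interval -0.34 to 0.72) on casein and 0.04 (-0.49 to 0.57) on soy. Abcg1, the partner pump of Abca1, differed by -0.12 and 0.11, neither called.

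Fasn, which builds palmitate and is a target of SREBP, rose on both diets. It measured 9.44, 9.47 and 9.36 in the casein arrays and 9.91, 9.96 and 10.12 with estradiol. It measured 9.47, 9.65 and 9.35 in the soy arrays and 10.23, 10.00 and 10.06 with estradiol. Every estradiol array exceeded every array without it, whichever the diet. The rise was 0.58 ± 0.092 on casein (adjusted p = 0.000611) and 0.61 ± 0.092 on soy (adjusted p = 0.000350), or 1.49-fold and 1.52-fold, and it was kept without each array. The second probe set, 1367707_at, was called higher on soy, by 0.38 ± 0.110 (adjusted p = 0.0136), a call lost without soy 1 (0.0544) or soy with estradiol 1 (0.0531) and with only the soy groups in the fit (0.0606), and was not called on casein (0.21, adjusted p = 0.151).

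Scd, the stearoyl-CoA desaturase, was not called and was the most variable of the 35 genes within groups. It measured 5.98, 5.55 and 5.24 in the casein arrays, 6.35, 6.92 and 5.34 with estradiol on casein, 5.37, 7.30 and 6.0 in the soy arrays and 6.09, 5.39 and 7.17 with estradiol on soy. The high arrays were soy 2, soy with estradiol 3 and casein with estradiol 2. These were also the arrays with the highest mean of the 10 adipocyte markers, which was 6.0, 6.05 and 6.16 in the casein arrays, 6.57, 7.02 and 6.19 with estradiol, 6.14, 7.20 and 6.48 in the soy arrays and 6.88, 6.52 and 7.21 with estradiol on soy. Of the 10, 7 were tested, with 2 higher and 1 lower with estradiol on casein and 1 higher and 2 lower on soy. That is 42.9% called on each diet, beside 41.8% and 49.5% of all probe sets. Fabp4, the fat cell lipid carrier, read 4.47, 4.70 and 5.43 in the casein arrays, 6.25, 7.51 and 4.91 with estradiol, 4.74, 7.87 and 5.46 in the soy arrays and 6.88, 6.07 and 8.23 with estradiol on soy. Fabp4 and Car3 ranged most widely of the 10 over the arrays. Among the soy arrays, Lipe was lowest and Lep not highest in soy 2, where the other markers were highest. The part of fat cells in the Scd values was not tested. The estradiol difference in Scd was 0.61 (95% interval -0.60 to 1.82) on casein and -0.01 (-1.22 to 1.20) on soy, an interval that spanned more than 2-fold each way on soy.

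**Figure D5:**
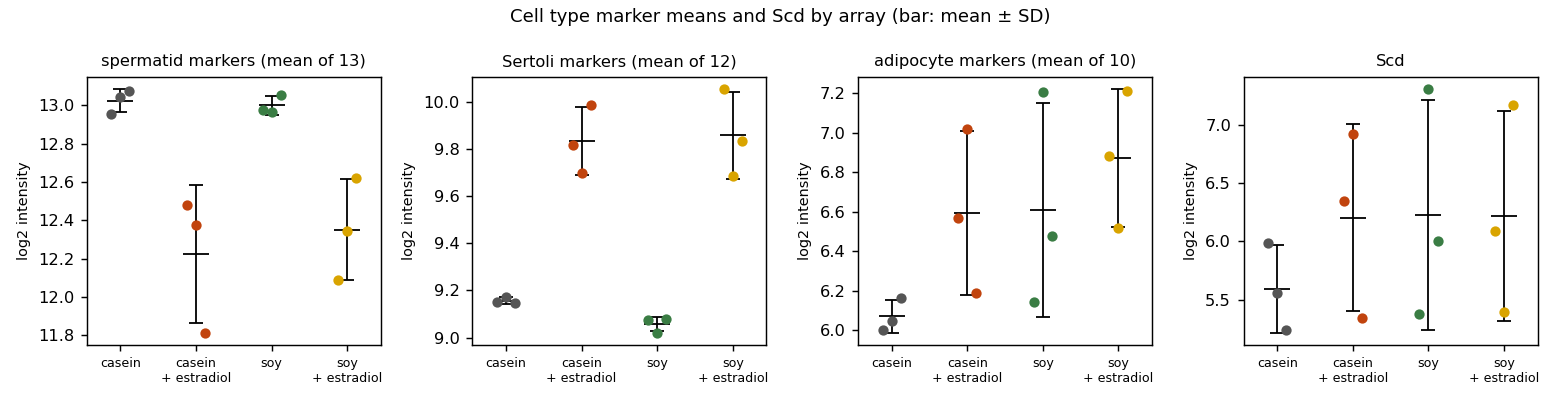
Mean log2 intensity per array of the spermatid, Sertoli and adipocyte marker lists and the log2 intensity of Scd, each point 1 array, with bars of mean ± SD over 3 arrays. Spermatid marker means fall and Sertoli marker means rise with estradiol on both diets, while the adipocyte marker means and Scd vary between arrays of 1 group, both highest in soy 2 and soy with estradiol 3.

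Soy against casein without estradiol asked what the diet alone did. Few of the 35 genes changed: 0 rose and 2 fell, Acat2 and Nr1h3, which is 5.71% of the list beside 9.73% of all probe sets, 6.61% higher and 3.12% lower. Acat2 measured 8.22, 8.12 and 8.33 in the casein arrays and 7.93, 7.93 and 7.86 in the soy arrays, a difference of -0.32 ± 0.083 (adjusted p = 0.0317) with no overlap. It was lost without casein 1, casein 3 or any 1 of the soy arrays (adjusted p = 0.0574 to 0.13). With estradiol on soy Acat2 stood at 8.23, 8.18 and 8.13, and both Acat2 calls rest on the same 3 soy arrays. Nr1h3 was lower, at -0.44 ± 0.099 (adjusted p = 0.0156), also with no overlap, and this was lost without soy 3 (adjusted p = 0.071). The gene passed the filter only through its casein arrays, the higher group here, so this call is not independent of the filter. The casein arrays in this comparison are those of the estradiol comparison on casein. The soy and casein arrays did not overlap for 8 of the 35 genes, against 37.4% of all probe sets. The other 33 differences ran from -0.40 (Nr1h2) to 0.63 (Scd). Sterol sensing genes differed little between the diets, from 0.01 (Srebf1) to 0.11 (Insig2).

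Under estradiol, 0 of the 35 genes differed between soy and casein in limma, beside 0.00460% of all probe sets, which was 1 probe set. At an unadjusted p under 0.05 there were 9 (25.7%), of which 8 were lower and 1 higher on soy, beside 12.8% of all probe sets. The lowest adjusted p was 0.226, for Sqle and Abca1. Sqle measured 9.59, 9.48 and 9.35 with estradiol on casein and 8.98, 8.91 and 9.31 on soy, a difference of -0.41 ± 0.115. Fdft1 measured 10.86, 10.80 and 10.78 on casein and 10.50, 9.98 and 10.67 on soy, a difference of -0.43 ± 0.136 (adjusted p = 0.261). Without soy with estradiol 3 both were called, Sqle at -0.53 (adjusted p = 0.0327) and Fdft1 at -0.58 (adjusted p = 0.0477). In that fit 372 of all probe sets (1.71%) were called. The array left out was the highest soy array with estradiol for both genes, and soy with estradiol 2 the lowest. Neither gene was called without any other single array. The arrays did not overlap for 9 of the 35 genes, against 14.5% of all probe sets.

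The interaction subtracts the effect of estradiol on casein from its effect on soy and tested whether the diets differed in their response. In limma 0 of the 35 genes were called, beside 3.41% of all probe sets, 1.12% above and 2.29% below 0. At an unadjusted p under 0.05 there were 5 (14.3%), with 3 above and 2 below 0, fewer than the 21.3% of all probe sets. The nearest to the threshold were Nr1h3 at 0.54 ± 0.140 (adjusted p = 0.0569) and Abca1 at 0.70 ± 0.193 (adjusted p = 0.0655), where the rise was larger on soy. For Nr1h3 both estradiol means lay below the filter level and the gene passed the filter only through its casein arrays, so its falls on the 2 diets cannot be compared in size. Abca1 was called on the deposited values (0.85, adjusted p = 0.0319), with median centring (0.87, adjusted p = 0.0298), with array weights (0.85, adjusted p = 0.0086) and without casein with estradiol 3 (0.84, adjusted p = 0.046). Its probe sets 1394490_at and 1383355_at had interactions of -0.07 and 0.01, neither called. The interactions of Mvk, Sqle and Insig2 were not called, at -0.30 (95% interval -0.65 to 0.04), -0.37 (-0.75 to 0.00) and -0.27 (-0.56 to 0.02). These intervals rest on the 8 residual degrees of freedom alone and are wider than the p-values imply. Insig2 was called without soy with estradiol 3, at -0.38 (adjusted p = 0.0444), and Mvk with array weights, at -0.35 (adjusted p = 0.0429).

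Other genes of these pathways were read from 6 lists drawn up for this purpose, on the same probe set rule. Among 10 tested genes of the isoprenoid branch and of sterol regulation, 2 rose and 3 fell with estradiol on casein, and 3 rose and 1 fell on soy. The shares called, 50% and 40.0%, lay close to the 41.8% and 49.5% of all probe sets. The proteases that release SREBP in the Golgi rose with Scap. Mbtps2, the site-2 protease, rose by 0.44 ± 0.073 on casein (adjusted p = 0.000723) and 0.67 ± 0.073 on soy (adjusted p = 8.55e-05). Mbtps1, the site-1 protease, rose by 0.36 ± 0.104 (adjusted p = 0.0145) and 0.36 ± 0.104 (adjusted p = 0.0123), with the casein call lost without casein 2 or casein with estradiol 3 (0.0504 and 0.0626) and with median centring (0.0578). Nus1 and Dhdds, the subunits of the enzyme that makes dolichol precursors from farnesyl diphosphate, were lower. Nus1 was lower, at -0.49 ± 0.110 on casein (adjusted p = 0.00410) and -0.52 ± 0.110 on soy (adjusted p = 0.00254). Dhdds was lower, at -0.54 ± 0.151 on casein (adjusted p = 0.0132), lost without casein 3 or casein with estradiol 1 (0.0645 and 0.0619), and differed by -0.34 on soy (adjusted p = 0.0761).

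Of 12 other tested genes of fatty acid synthesis, 3 rose and 2 fell with estradiol on casein, and 4 rose and 2 fell on soy, with 41.7% and 50% called, near all probe sets. Elovl5, an elongase of polyunsaturated fatty acids, rose by 0.37 ± 0.086 on casein (adjusted p = 0.00503), lost with median centring (0.0646), and by 0.58 ± 0.086 on soy (adjusted p = 0.000305). Acly, which supplies cytosolic acetyl-CoA to both sterol and fatty acid synthesis, rose by 0.56 ± 0.127 on soy (adjusted p = 0.00350). On casein it rose by 0.37 ± 0.127 (adjusted p = 0.0335), a call lost in 5 of the 12 fits that each left out 1 array, those without casein 1, 2 or 3 or casein with estradiol 1 or 3 (0.0559 to 0.11), on the deposited values (0.101) and with median centring (0.155). Scd2, a paralog of Scd that was named here after its values were seen, rose by 0.59 ± 0.15 on casein (adjusted p = 0.00777) and 0.58 ± 0.15 on soy (adjusted p = 0.00761). In the other direction, the desaturase Fads1 was lower, at -0.70 ± 0.110 on casein (adjusted p = 0.000575) and -0.62 ± 0.110 on soy (adjusted p = 0.000810). Acsl1, which activates fatty acids, was lower, at -0.81 ± 0.181 (adjusted p = 0.00401) and -0.64 ± 0.181 (adjusted p = 0.0116).

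Of 10 other tested uptake, transport and efflux genes, 0 rose and 2 fell on casein, and 1 rose and 3 fell on soy, with 20.0% and 40.0% called, below all probe sets. Cd36, a scavenger receptor and fatty acid transporter, was lower, at -0.97 ± 0.207 on casein (adjusted p = 0.00300) and -1.33 ± 0.207 on soy (adjusted p = 0.000402). Vldlr, a lipoprotein receptor, was lower on soy, at -0.67 ± 0.144 (adjusted p = 0.00254), and Lrpap1, a chaperone of that receptor family, rose on soy by 0.46 ± 0.105 (adjusted p = 0.00384). Abca7, a pump related to Abca1, was lower on casein, at -0.24 ± 0.077 (adjusted p = 0.0267), lost without casein 3 or casein with estradiol 1 or 3 (0.0697 to 0.119).

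Of 9 tested genes of ester storage and lipid droplets, 0 rose and 4 fell on casein, and 0 rose and 5 fell on soy. The shares called, 44.4% and 55.6%, were near those of all probe sets. Ces1d, a carboxylesterase that acts on lipid esters, was lower, at -2.52 ± 0.251 on casein (adjusted p = 4.12e-05) and -3.33 ± 0.251 on soy (adjusted p = 1.68e-05). Lcat, which esterifies cholesterol on lipoproteins, was lower, at -0.60 ± 0.100 (adjusted p = 0.000749) and -0.43 ± 0.100 (adjusted p = 0.00432). Pnpla2, the triglyceride lipase of droplets, was lower, at -0.30 ± 0.085 (adjusted p = 0.0129) and -0.57 ± 0.085 (adjusted p = 0.000317). Plin5, a droplet coat protein, was lower, at -0.48 ± 0.087 on casein (adjusted p = 0.00122) to a mean below the filter level. Lipe, which hydrolyses stored esters, was higher on soy than on casein by 0.44 ± 0.084 (adjusted p = 0.00762) and was lower with estradiol on soy, at -0.33 ± 0.084 (adjusted p = 0.00715), comparisons that share the soy arrays.

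Of 7 tested genes that use cholesterol for steroid synthesis, 1 rose and 4 fell on casein, and 1 rose and 5 fell on soy, with 71.4% and 85.7% called, beside 41.8% and 49.5% of all probe sets. Hsd17b3, which makes testosterone, was lower, at -1.20 ± 0.088 on casein (adjusted p = 5.86e-06) and -1.05 ± 0.088 on soy (adjusted p = 2.79e-05). Tspo, an outer mitochondrial membrane protein that binds cholesterol, was lower, at -0.47 ± 0.084 (adjusted p = 0.00106) and -0.28 ± 0.084 (adjusted p = 0.0163), with the soy call lost without soy 3 (0.0698) or soy with estradiol 3 (0.0605), on the deposited values (0.0771), with median centring (0.0584) and with only the soy groups in the fit (0.0565). Cyp11a1, the side-chain cleavage enzyme, was lower, at -0.63 ± 0.168 on soy (adjusted p = 0.00873). On casein it went from 9.15, 8.78 and 9.07 to 8.52, 8.11 and 8.79 and was also called lower (adjusted p = 0.025). That casein call was lost without casein 1, casein 3 or casein with estradiol 1 or 2 (0.0523 to 0.101). Hsd3b1, a steroid dehydrogenase, rose by 0.87 ± 0.144 (adjusted p = 0.000737) and 0.94 ± 0.144 (adjusted p = 0.000377). Apart from Tspo, these genes are also on the Leydig marker list. Of the 3 tested oxysterol and bile acid enzymes, 1 rose on each diet (33.3%). Cyp46a1, cholesterol 24-hydroxylase, rose on casein by 0.27 ± 0.093 (adjusted p = 0.0322), lost without casein 1, 2 or 3 or casein with estradiol 2 or 3 (0.053 to 0.126) and with array weights (0.0888), and was higher on soy than on casein by 0.47 ± 0.093 (adjusted p = 0.00862). Cyp27a1, sterol 27-hydroxylase, rose on soy by 0.23 ± 0.082 (adjusted p = 0.0333), lost without soy 1, soy 2 or soy with estradiol 1 (0.0625 to 0.116) and with only the soy groups in the fit (0.064).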

How the data were processed

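The deposited values are log2 probe set intensities on 12 arrays, made with GCOS per the submitters' processing notes. How background, summarisation and normalization were handled is not given in the sources used here, and the log2 scale was read from the values. All 12 columns were used (0 left out). Symbols are those of the platform annotation, where 20832 of 31099 probe sets had 1 symbol, 436 several and 9831 none. All 35 genes matched the rat gene table by Entrez ID with the same symbol.

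Lower quartiles, medians and upper quartiles of the arrays spanned 0.164, 0.069 and 0.183. This exceeded a preset 0.15, so arrays were quantile normalized. The 57 control probe sets and the 30% with the lowest means (below 5.69) were left out, and 21729 probe sets of 11777 genes were tested. One limma 3.58.1 model (R 4.3.3) with 4 group means and eBayes with a trend gave 8 residual degrees of freedom. The model was run on simulated independent values with few changed probe sets in a single group. That run held neither the normalization nor wide change, so it does not test them. Benjamini-Hochberg adjustment ran over all probe sets tested in each of 5 comparisons. The number of arrays limits the precision: the median SE was 0.092 (interaction 0.131), and an exact test of 3 against 3 cannot go below a two-sided 0.1.

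Every listed gene with a probe set is accounted for, with values for those called, and at most the 3 called genes with the smallest p are named from each further list. Promoters shown are those of genes called in both estradiol comparisons. The genes, lists and tests were chosen with earlier results of these data known.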

Additional observations from a re-analysis of the deposited data

How the results depend on the processing

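Alternatives changed the scaling, the filter, the variance model, the arrays, the probe set rule and the threshold. One, which left out casein with estradiol 3 and soy with estradiol 1 together, was added after seeing the data. For the 29 called gene results, these alternatives gave 680 outcomes, each 1 gene result under 1 alternative. Of these, 611 kept their call and direction, 68 lost the call and 1 turned sign, Srebf2 on soy at -0.022 with the mean of its probe sets. Of the 35 genes, 10 were called with estradiol on casein, 17 with array weights and 6 at an adjusted p under 0.01, and 5 to 12 without 1 array. Of all probe sets, the shares called in these settings were 41.8%, 60.7%, 25.2% and 28.6% to 48.1%. With estradiol on soy 17 were called, and 13 to 18 without 1 array. There 49.5% of all probe sets were called, and 38.2% to 51.8% without 1 array. For soy against casein 2 were called, 4 with median centring, 4 with only those groups fitted, 4 with array weights, 1 under the 50% filter, 1 with the mean of all probe sets, 0 at an adjusted p under 0.01, and 0 to 2 without 1 array. In the same order, the shares of all probe sets were 9.73%, 21%, 15.5%, 23.8%, 7.96%, 5.49% (of genes), 3.26%, and 4.6% to 12.9%. Under estradiol 0 were called, 3 with array weights, 2 without casein with estradiol 2 and soy with estradiol 1, and 0 to 2 without 1 array. The shares of all probe sets were 0.0046%, 2.3%, 3.23%, and 0% to 1.71%. For the interaction 0 were called, 1 on the deposited values, 1 with median centring, 4 with array weights, and 0 to 1 without 1 array. Here the shares of all probe sets were 3.41%, 4.68%, 5.73%, 15.3%, and 0.718% to 4.83%. With estradiol on casein, 4 rose and 6 fell, against 3 and 8 on the deposited values and 3 and 10 with centring. Over all probe sets the share of rises among calls there was 52.5%, and 40.9% with centring; for soy against casein 68.0% of 2114 calls, 49.5% of 3934 on the deposited values and 36.7% of 4566 with centring, where the median of all differences was -0.11. Taken as deviations from their group means, same-numbered arrays of different groups correlated at -0.36 to 0.35. Arrays with different numbers were not compared in this way, so whether the numbers pair the arrays was not settled. With the replicate block the 5 counts were 10, 17, 2, 0 and 0, unchanged, and interaction calls over all probe sets went from 741 to 393.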
